A study of Mus musculus with 8 samples.

Results

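The 31 genes described here encode most subunits of the ionotropic glutamate receptors, most metabotropic glutamate receptors, the cerebellins and the Homer scaffold proteins. They were chosen by name and function, with earlier results of these data known. Their values came from the probe sets annotated with 1 of these symbols alone or with an older synonym of it. All 31 were measured, out of 20352 genes in all, on 432 probe sets, with 3 to 24 probe sets per gene. RNA came from cerebella taken at 28 days, 4 from mice with the genotype Cic-L-null and 4 from wild-type mice, all on a mixed Swiss Webster (CD-1) background. Capicua, the product of Cic, is a transcriptional repressor that works in a complex with ataxin-1, and the labels do not say how the allele was made or in which cells it acts. Each mouse gave 1 Affymetrix Mouse Gene 1.0 ST array, and the single comparison set Cic-L-null cerebella against wild-type cerebella. All values are log2 units, and all differences are Cic-L-null minus wild-type.

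Glutamate is the transmitter of the parallel fibres, which are the axons of granule cells, and of the climbing and mossy fibres that enter the cerebellum. AMPA, kainate and NMDA receptors are ion channels built of 4 subunits, whereas metabotropic receptors act through G proteins. Cbln1, a cerebellin secreted by granule cells, links neurexins on the parallel fibre terminal to delta-type glutamate receptors on the other side of the synapse. Homer proteins tie group I metabotropic receptors to calcium stores and to the postsynaptic density.

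Cic, the altered gene, lay between 7.48 and 7.62 in the 4 Cic-L-null cerebella, against 8.57 to 9.19 in the 4 wild-type cerebella, so the labels fitted its level on every array. Gene values correlated between 0.9913 and 0.9954 over all pairs of arrays. Y-linked genes were high in Cic-L-null replicates 1, 2 and 4 and in wild-type replicates 1 and 4, so the sexes were not balanced. The label of wild-type replicate 1 names another RNA extraction than those of the other arrays. That array held the highest wild-type value of 16 of the 31 genes, and wild-type replicate 3 held the lowest of 15. Because this is bulk tissue, fewer cells of a type and less RNA per cell cannot be told apart.

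No gene of the 31 passed the test over all genes, beside 0.138% of all genes (limma, Benjamini-Hochberg adjusted p under 0.05 over 20352 genes). At so small a share, the lack of a call among 31 genes does not set them apart from all genes. The smallest adjusted p among the 31 was 0.254, for Gria1. At an unadjusted p under 0.05 there were 7 of the 31, namely Gria1, Gria4, Gria3, Grin2d, Grm5, Grm4 and Grm8, beside 9.26% of all genes. In 5 of the 31 the 4 Cic-L-null arrays did not overlap the 4 wild-type arrays, 3 higher and 2 lower, where 5.94% of all genes did so, 3.02% of them higher and 2.91% lower. A difference above 0 was found in 21 of the 31 against 47.0% of all genes, and the median difference was 0.079 against -0.0071 over all genes. These counts describe the genes as chosen and were not tested as a set.

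**Figure D1:**
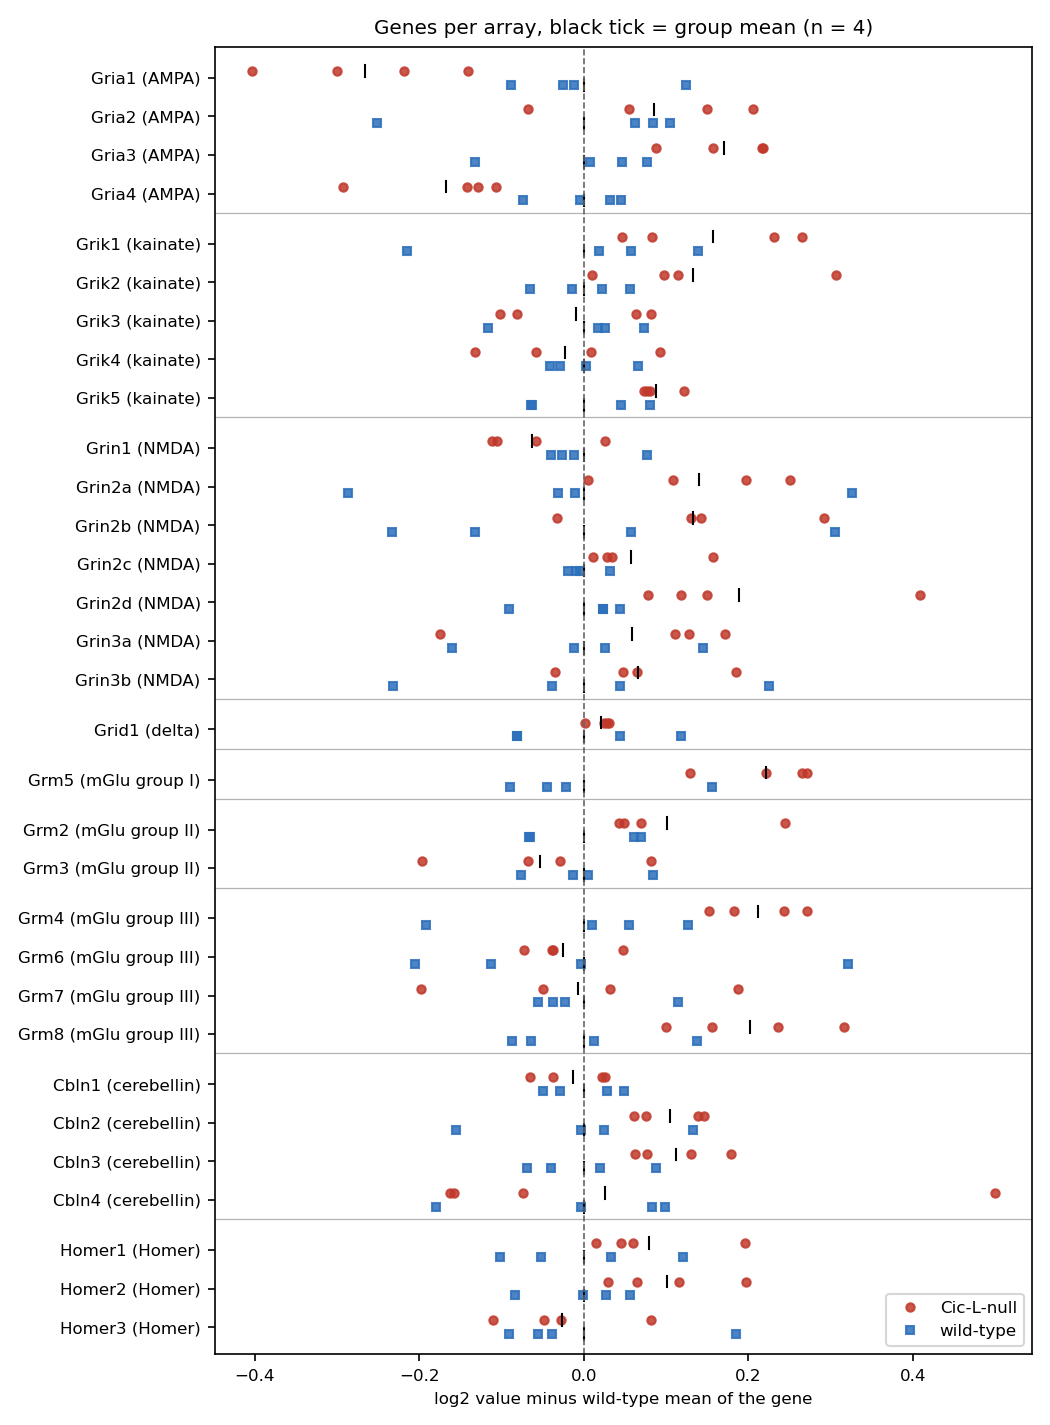
Each point is 1 array, as its log2 value minus the wild-type mean of that gene, with Cic-L-null above wild-type in each row and a black tick at the group mean (n = 4). Gria1 and Gria4 lie to the left in all 4 Cic-L-null arrays, Gria3, Grin2d and Grm4 to the right, and in the other genes the groups overlap.

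The AMPA receptor genes went in opposite directions. Gria1, which encodes GluA1, had log2 values of 11.19, 10.93, 11.11 and 11.03 in Cic-L-null replicates 1 to 4, against 11.45, 11.30, 11.24 and 11.32 in wild-type replicates 1 to 4. Every Cic-L-null value was below every wild-type value. The difference was -0.27 (SE 0.073, 95% interval -0.43 to -0.10, limma adjusted p = 0.254), a 1.20-fold lower level. All 17 Gria1 probe sets had a lower mean in Cic-L-null, and in 8 of them the groups did not overlap.

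Gria4, which encodes GluA4, had 11.67, 11.51, 11.70 and 11.66 in Cic-L-null cerebella, against 11.83, 11.85, 11.73 and 11.80 in wild-type cerebella. The groups were again apart, by a narrow margin between Cic-L-null replicate 3 and wild-type replicate 3. The difference was -0.17 (SE 0.062, limma adjusted p = 0.419), with 20 of 21 probe sets lower and 11 of them without overlap.

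Gria3, the X-linked gene of GluA3, had 10.52, 10.39, 10.46 and 10.52 in Cic-L-null cerebella, against 10.38, 10.35, 10.17 and 10.31 in wild-type cerebella. Here all Cic-L-null values were above all wild-type values. The difference was 0.17 (SE 0.065, limma adjusted p = 0.435), and all 20 probe sets had a higher mean in Cic-L-null. With the Y-linked signal as a covariate the difference was 0.16. Gria2, whose product GluA2 keeps calcium out of the channel, averaged 10.84 ± 0.12 in Cic-L-null and 10.75 ± 0.17 in wild-type cerebella (SD, n = 4 each). Its groups overlapped, and its difference was 0.086 with a 95% interval of -0.12 to 0.29. That difference rested on wild-type replicate 3, at 10.50, without which it was 0.0023.

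Within each array, Gria2 was also set against Gria1 and Gria4, a comparison chosen after their values were seen and not tested. Gria2 minus Gria1 was -0.29, -0.12, -0.43 and -0.072 in Cic-L-null replicates 1 to 4, against -0.62, -0.49, -0.74 and -0.46 in wild-type replicates 1 to 4. The groups did not overlap, with Cic-L-null higher by 0.35 on average. Most of that shift is the Gria1 difference of -0.27 given above, and so is not a further result. Gria2 minus Gria4 was higher by 0.25 on average and overlapped, since Cic-L-null replicate 3, at -1.01, lay among the wild-type values of -1.23 to -0.94. Probes differ in brightness, so only the shift between the groups can be read from these differences, not their size in a group.

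**Figure D2:**
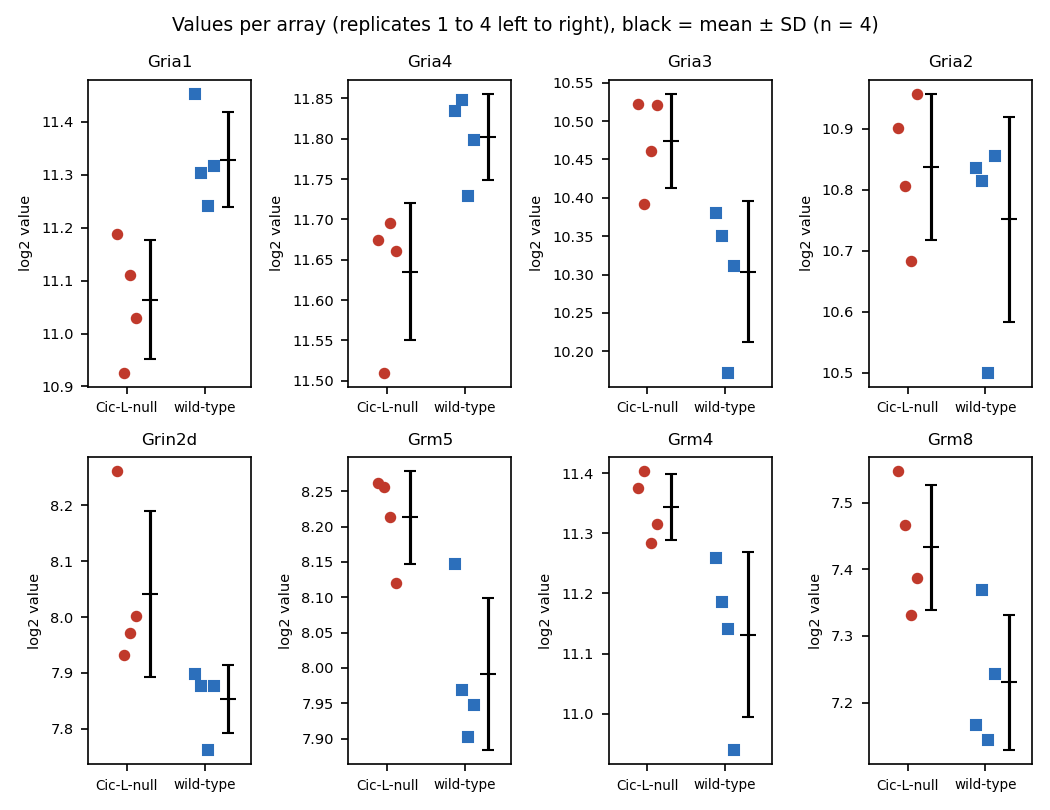
Log2 values per array of the 7 genes with an unadjusted p under 0.05 and of Gria2, with replicates 1 to 4 from left to right and the mean ± SD beside them in black (n = 4). The axes differ between panels and do not start at 0. The groups are apart for Gria1, Gria4, Gria3, Grin2d and Grm4 and overlap for Gria2, Grm5 and Grm8.

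GluA1 and GluA4 without GluA2 form the calcium-permeable AMPA receptors of Bergmann glia, and neurons of the cerebellum express these subunits too. Of the 11 markers of Bergmann glia and astrocytes, 10 had differences below 0, and the median over the list was -0.14. Their mean level was 9.75 to 9.84 over the Cic-L-null arrays, against 9.93 to 10.08 over the wild-type arrays, with no overlap, and no marker of the list lay below 6.21, the dim limit, under which 95% of olfactory receptor genes lie. Fabp7, a fatty acid binding protein of these cells, fell by 1.17 (SE 0.14, limma adjusted p = 0.0180), the only marker of the list that passed. With the replicate numbers as a block, or without Cic-L-null replicate 2, 0 genes passed over all genes, Fabp7 and Cic among those lost. Gdf10, a secreted factor of Bergmann glia, differed by -0.33 (SE 0.073, limma adjusted p = 0.147). The glial glutamate transporter gene Slc1a2 differed by 0.12 (SE 0.057), with all Cic-L-null arrays above all wild-type arrays. The list was uneven, with the groups apart in 5 of the 11 markers, 4 lower and 1 higher. Slc1a3, Sox9 and Hopx, also of this list, differed by -0.031 (SE 0.056), -0.025 (SE 0.063) and -0.015 (SE 0.078), and their groups overlapped. Fabp7 had the largest difference, so the lower mean level owes more to it than to any other marker. The mean level without Fabp7 was not tested. The part of glial RNA in the Gria1 and Gria4 values was not tested.

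Markers of mature oligodendrocytes had lower means in Cic-L-null too. All 9 measured members of that list had a difference below 0, and 0 of them passed over all genes. Their mean level was 10.07 to 10.16 in Cic-L-null, against 10.24 to 10.34 in wild-type cerebella. The markers with the smallest p were Mobp at -0.30 (SE 0.060, limma adjusted p = 0.104) and Trf at -0.33 (SE 0.076). Their part in the receptor values was not tested either.

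The mean levels of the neuronal marker lists overlapped between the groups. The granule cell list had a mean level of 11.41 to 11.47 in Cic-L-null and 11.36 to 11.49 in wild-type cerebella, and the Purkinje cell list of 10.37 to 10.42 in Cic-L-null and 10.30 to 10.44 in wild-type cerebella. Interneuron and Golgi cell markers lay at 8.0 to 8.11 in Cic-L-null and 8.04 to 8.12 in wild-type cerebella. No marker of these 3 lists passed over all genes. The smallest p in each list belonged to Reln, a guidance protein of granule cells, at 0.32 (SE 0.064, limma adjusted p = 0.0964), to Lhx1 of Purkinje cells at 0.24 (SE 0.062), and to Tfap2a of interneurons at 0.30 (SE 0.078). In these 3 genes all Cic-L-null arrays were above all wild-type arrays, as they were in Slc17a7, also a granule cell marker. The genes next in order were Kcnd2 at -0.15 (SE 0.059), Kcng4 at -0.20 (SE 0.065) and Sorcs3 at 0.14 (SE 0.085).

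**Figure D3:**
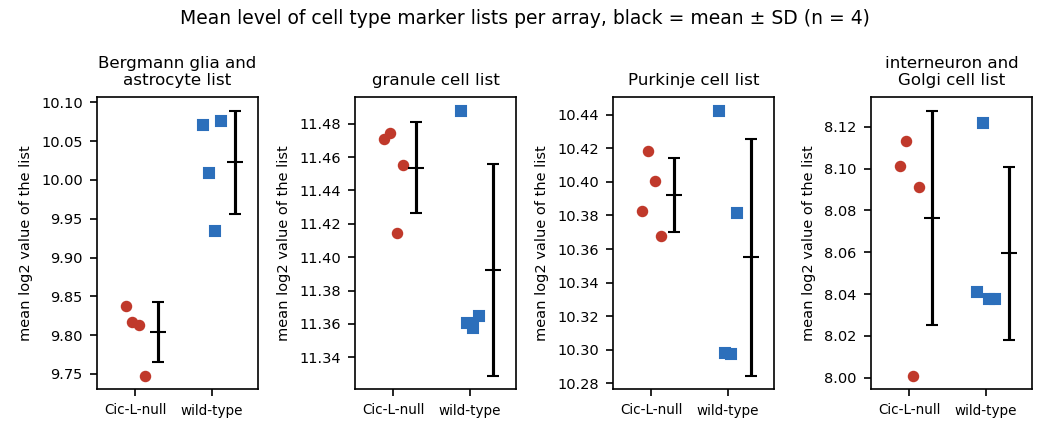
Mean log2 value of 4 lists of cell type markers on each array, with the mean ± SD in black (n = 4) and axes that do not start at 0. The Bergmann glia and astrocyte list lies at 9.75 to 9.84 in Cic-L-null and 9.93 to 10.08 in wild-type, whereas the 3 neuronal lists overlap, with wild-type replicate 1 high in the granule and Purkinje cell lists.

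Unipolar brush and deep nuclear markers had a median difference of 0.072, with Eomes at 0.47 (SE 0.13) and Spp1 at -0.41 (SE 0.10). Forebrain markers lay at 6.76 to 7.09 in Cic-L-null and 6.82 to 7.09 in wild-type cerebella, and 3 of the 8 measured were below the dim limit. Of these, Neurod6 differed by -0.25 (SE 0.10) and Emx2 by -0.15 (SE 0.10). Midbrain and brainstem markers lay at 6.06 to 6.17 in Cic-L-null and 6.05 to 6.14 in wild-type cerebella, with 5 of 9 below the dim limit. Th and Tph2 of that list differed by 0.58 (SE 0.11) and 0.34 (SE 0.096), and neither passed. Tph2, with means of 5.49 in Cic-L-null and 5.16 in wild-type cerebella, lay below the dim limit.

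The kainate receptor genes gave no unadjusted p under 0.05. Grik2, which encodes GluK2 of granule and Golgi cells, had 10.72, 10.74, 10.63 and 10.93 in Cic-L-null cerebella, against 10.65, 10.68, 10.56 and 10.61 in wild-type cerebella. The groups overlapped only through Cic-L-null replicate 3. The difference was 0.13 (SE 0.071, limma adjusted p = 0.639), with 23 of 24 probe sets higher. It was 0.074 without Cic-L-null replicate 4 and 0.075 with the median of the probe sets. Grik1, another subunit that can form a channel alone, differed by 0.16 (SE 0.086), and by 0.086 without wild-type replicate 3.

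Grik3, a channel-forming subunit of the same kind, had 9.06, 8.90, 8.88 and 9.05 in Cic-L-null cerebella, against 9.01, 9.0, 8.87 and 9.06 in wild-type cerebella. The 2 sets of values covered nearly the same range. Grik4, which needs a channel-forming subunit as partner, had 7.47, 7.61, 7.70 and 7.54 in Cic-L-null cerebella, against 7.56, 7.57, 7.61 and 7.67 in wild-type cerebella. The 95% intervals of these differences ran from -0.16 to 0.14 for Grik3 and from -0.16 to 0.12 for Grik4, so larger shifts in either direction lie outside them.

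Grik5, a partner subunit like Grik4, is a near neighbour of Cic on chromosome 7, with 10 annotated genes between them in GRCm38.p6. It differed by 0.089 (SE 0.057), with 15 of 18 probe sets higher. Grin2d, Grm5 and Homer2 lie on that chromosome as well. Of these, Grin2d and Homer2 lie far from Grik5, near bases 45866682 and 81692966 against 25072370. The position of Grm5 is not given here. All 4 had differences above 0, from 0.089 to 0.22, as had 21 of all 31 genes. Over the 1780 measured genes of the chromosome other than Cic the median was -0.014. Of these, 220 had an unadjusted p under 0.05 (limma), 78 higher and 142 lower, beside 1885 of all 20352 genes. The groups did not overlap in 149 of them, beside 1208 of all genes, and 6 passed, beside 28. Whether closeness to Cic has a part in these values was not tested.

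Among the NMDA receptor genes only Grin2d had an unadjusted p under 0.05 (limma), though Grin2a and Grin2b differed by 0.14 and 0.13. Grin2d, which encodes the GluN2D subunit found in Golgi cells, had 8.26, 7.93, 7.97 and 8.0 in Cic-L-null cerebella, against 7.90, 7.88, 7.76 and 7.88 in wild-type cerebella. The groups did not overlap, but Cic-L-null replicates 2 and 3 lay close to the wild-type values and replicate 1 far above. The difference was 0.19 (SE 0.078, limma adjusted p = 0.488), and 10 of its 12 probe sets were higher. Without Cic-L-null replicate 1 it was 0.12.

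Granule cells replace GluN2B by GluN2A and GluN2C as they mature, so the 3 genes were followed on each array. Grin2c had 10.28, 10.30, 10.29 and 10.42 in Cic-L-null cerebella, against 10.25, 10.24, 10.26 and 10.30 in wild-type cerebella. Grin2b had 7.11, 6.95, 7.27 and 7.12 in Cic-L-null cerebella, against 7.29, 6.75, 7.04 and 6.85 in wild-type cerebella. Grin2a had 9.46, 9.35, 9.54 and 9.60 in Cic-L-null cerebella, against 9.67, 9.34, 9.32 and 9.06 in wild-type cerebella. All 3 overlapped, and wild-type replicate 1 was the highest of the 8 arrays for both Grin2a and Grin2b. Without that array the difference was 0.25 for Grin2a and 0.24 for Grin2b, where it was 0.14 and 0.13 with all arrays. It was 0.045 for Grin2a without wild-type replicate 4 and 0.056 for Grin2b without wild-type replicate 2. For Grin2c it was 0.058 with all arrays and 0.025 without Cic-L-null replicate 4.

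Grin2c minus Grin2b was 3.16, 3.35, 3.02 and 3.30 in Cic-L-null replicates 1 to 4, against 2.97, 3.50, 3.22 and 3.45 in wild-type replicates 1 to 4. The Cic-L-null values lay within the wild-type range, and the group means differed by -0.075. With the median of the probe sets the group means differed by 0.023, so the direction was not settled. Grin2a minus Grin2b differed by 0.0075, with 2.37 ± 0.086 in Cic-L-null and 2.37 ± 0.17 in wild-type cerebella (SD, n = 4 each), and by -0.066 with the median of the probe sets. Grin1, the subunit that every NMDA receptor holds, differed by -0.062 (SE 0.058), with 19 of 22 probe sets lower. The glycine-binding subunit genes Grin3a and Grin3b differed by 0.059 (SE 0.091) and 0.066 (SE 0.094). Grin3b rested on 4 probe sets, and with 7 more that also carry another symbol its difference was -0.053.

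**Figure D4:**
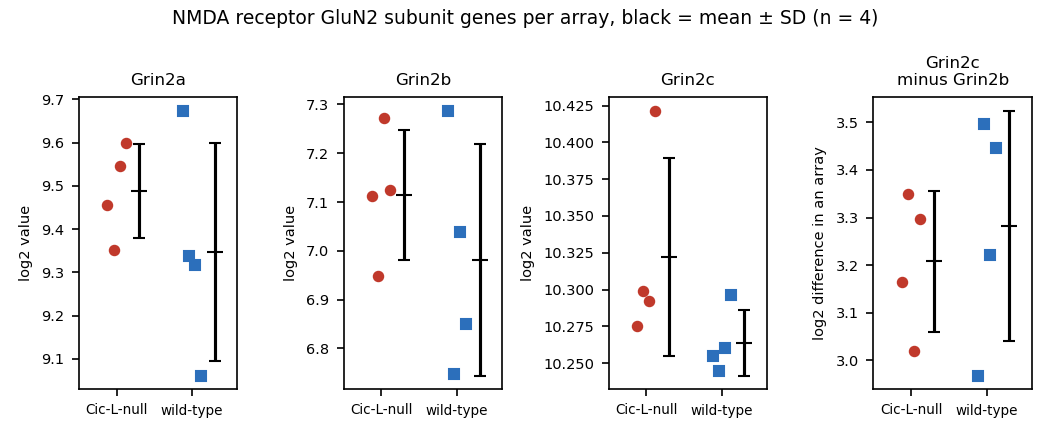
Log2 values of Grin2a, Grin2b and Grin2c on each array, and Grin2c minus Grin2b within each array, with the mean ± SD in black (n = 4) and axes that do not start at 0. In all 4 panels the groups overlap, and Grin2c minus Grin2b spans 3.02 to 3.35 in Cic-L-null and 2.97 to 3.50 in wild-type.

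Grid1, which encodes the delta receptor GluD1, had 8.43, 8.46, 8.46 and 8.46 in Cic-L-null cerebella, against 8.55, 8.48, 8.35 and 8.35 in wild-type cerebella. The Cic-L-null arrays were close to each other and lay inside the wild-type range. The difference was 0.021, with a 95% interval of -0.12 to 0.16.

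The metabotropic receptor genes with an unadjusted p under 0.05 all had higher means in Cic-L-null. Grm5, the Gq-coupled group I receptor of Golgi cells in adult cerebellum, had 8.26, 8.26, 8.21 and 8.12 in Cic-L-null cerebella, against 8.15, 7.97, 7.90 and 7.95 in wild-type cerebella. The groups overlapped through wild-type replicate 1 alone. The difference was 0.22 (SE 0.068, 95% interval 0.070 to 0.37, limma adjusted p = 0.310), and all 10 probe sets were higher.

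Grm4, the receptor that dampens release at parallel fibre terminals, had 11.37, 11.40, 11.28 and 11.31 in Cic-L-null cerebella, against 11.26, 11.19, 11.14 and 10.94 in wild-type cerebella. No values overlapped, and wild-type replicate 4 was the lowest by 0.20. The difference was 0.21 (SE 0.074, limma adjusted p = 0.378). All 12 probe sets were higher, 6 of them without overlap.

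Grm8, another presynaptic group III receptor, had 7.55, 7.47, 7.33 and 7.39 in Cic-L-null cerebella, against 7.17, 7.37, 7.14 and 7.24 in wild-type cerebella. Wild-type replicate 2 lay among the Cic-L-null values. The difference was 0.20 (SE 0.072, limma adjusted p = 0.384), with 14 of 15 probe sets higher. Grm7, the third presynaptic member of that group, differed by -0.0068 (SE 0.084). Grm6, known from bipolar cells of the retina, lay at 5.93 in Cic-L-null and 5.95 in wild-type cerebella, and both means were under the dim limit.

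Of group II, Grm2, a receptor of Golgi cells, had 8.88, 8.69, 8.71 and 8.68 in Cic-L-null cerebella, against 8.57, 8.71, 8.57 and 8.70 in wild-type cerebella. Cic-L-null replicate 1 was the highest of the 8 arrays, and the others lay inside the wild-type range. Its difference was 0.10 (SE 0.067), and 0.054 without that array. Grm3, expressed in glia, differed by -0.053 (SE 0.070).

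**Figure D5:**
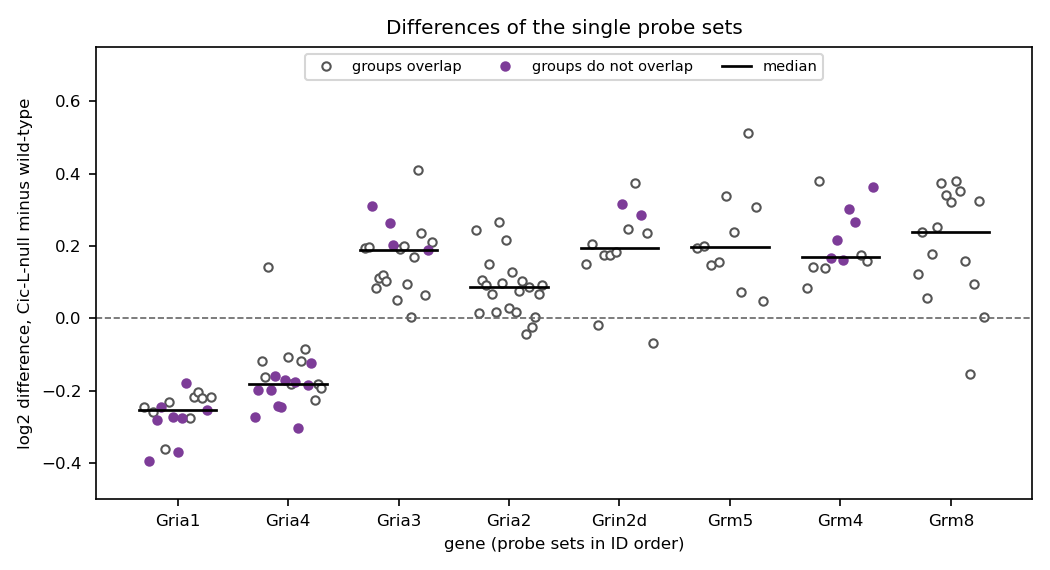
Log2 difference, Cic-L-null minus wild-type, of each probe set of 8 genes, with filled points where the 4 Cic-L-null arrays do not overlap the 4 wild-type arrays and a black line at the median. All 17 probe sets of Gria1 lie below 0, and all probe sets of Gria3, Grm5 and Grm4 lie above 0.

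Single probe sets gave no call. Fitted over 241576 probe sets, of which 0.000414% passed, none of the 432 did, and the smallest adjusted p was 0.452, for a Gria1 probe set. Of the 432, 284 were higher and 148 lower. The groups did not overlap in 50 of them, or 11.6%, against 4.30% of all probe sets. Probe sets of a gene share their RNA and are not independent, and Gria4, Gria1 and Grm4 together held 25 of the 50.

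None of the 4 cerebellin genes had an unadjusted p under 0.05. Cbln1, the cerebellin that granule cells release onto Purkinje cells, had 12.46, 12.38, 12.47 and 12.40 in Cic-L-null cerebella, against 12.49, 12.47, 12.39 and 12.41 in wild-type cerebella. The ranges were nearly the same, and the 95% interval of the difference was -0.13 to 0.11. Cbln1 rested on 3 probe sets.

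Cbln3, which granule cells secrete together with Cbln1, had 12.81, 12.86, 12.74 and 12.76 in Cic-L-null cerebella, against 12.77, 12.64, 12.61 and 12.70 in wild-type cerebella. Wild-type replicate 1 overlapped the Cic-L-null values and the other wild-type arrays did not. The difference was 0.11 (SE 0.059, limma adjusted p = 0.626), with all 6 probe sets higher. It was 0.023 after quantile normalisation of the gene values. Cbln2 had means of 6.05 in Cic-L-null and 5.95 in wild-type cerebella, both below the dim limit. Cbln4 differed by 0.026 (SE 0.14), with the widest interval of the 31 genes, and lay at 7.18 in Cic-L-null replicate 2 against 6.52 to 6.61 in the other Cic-L-null arrays.

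Homer genes overlapped throughout. Homer1, whose short form is induced by activity and whose long forms cross-link receptors, had 8.63, 8.66, 8.67 and 8.81 in Cic-L-null cerebella, against 8.65, 8.51, 8.56 and 8.73 in wild-type cerebella. Both groups spread over a similar range. The difference was 0.079 (SE 0.069) with the mean of its 19 probe sets and -0.046 with their median, and the files do not say which form a probe set covers.

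Homer2 had 7.48, 7.44, 7.61 and 7.53 in Cic-L-null cerebella, against 7.44, 7.33, 7.41 and 7.47 in wild-type cerebella, a difference of 0.10 (SE 0.061). Homer3, the main Homer of Purkinje cells, had 9.78, 9.70, 9.89 and 9.76 in Cic-L-null cerebella, against 9.99, 9.71, 9.75 and 9.77 in wild-type cerebella. Its highest value was that of wild-type replicate 1, and the groups overlapped over most of their range. Its difference was -0.026 (SE 0.075).

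Over the 24 genes without an unadjusted p under 0.05, differences ran from -0.062 for Grin1 to 0.16 for Grik1. Their 95% intervals reached from -0.28 to 0.40, so changes beyond that size lie outside all of them. Of the 31, 29 had means above the dim limit in both groups. Over all arrays 14010 of the 20352 genes had a mean above it, so the shares over all genes take in more dim genes. The count of the 31 at an unadjusted p under 0.05 moved with single arrays, to 4 without Cic-L-null replicate 1 and to 11 without wild-type replicate 1.

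Other genes of the glutamatergic synapse were counted by list. Of 47 measured partners, 0 passed over all genes, 27 had a difference above 0 and the median was 0.010. Of the auxiliary subunits of AMPA and kainate receptors, 5 of 12 were above 0. Neto1, a kainate receptor auxiliary subunit, differed by 0.28 (SE 0.079, limma adjusted p = 0.268), and Cnih3, an AMPA receptor auxiliary subunit, by -0.20 (SE 0.087).

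Postsynaptic scaffold genes were close to 0, with 11 of 15 above it, a median of 0.012 and the smallest p for Dlg3 at 0.15 (SE 0.074) and Dlgap1 at 0.11 (SE 0.061). Of the 7 glutamate transporters 4 were above 0. Slc17a7, the vesicular transporter of granule cells, differed by 0.13 (SE 0.059), with the groups apart. The neurexin genes Nrxn2 and Nrxn3, whose products bind cerebellins, differed by -0.011 (SE 0.052) and 0.10 (SE 0.079). Of 11 signalling genes, Gnaq, the G protein subunit behind group I receptors, differed by 0.16 (SE 0.053, limma adjusted p = 0.335) and Camk2b, a subunit of the calcium-activated kinase of the postsynaptic density, by -0.14 (SE 0.060). The groups did not overlap for either.

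The promoter windows of the genes were searched for the octamer that Capicua is known to bind, in the forms TGAATGAA, TGAATGGA, TCAATGAA and TCAATGGA on both strands. RefSeq windows in GRCm38.p6, from 250 bases before to 50 after a start, were at hand for 20 of the 31 genes, 25 windows in all. None of the 25 held a match, beside 3.84% of all 32851 windows, and so few windows cannot set these genes apart from that share. Gria1, Gria3, Grm4 and Grm5 were among the genes without a window. This describes these letters in these windows only. The 250 bases before the start are shown for Gria4 (chr9:4796235-4796484, minus strand) and Grin2d (chr7:45866682-45866931, minus strand), the genes with a window whose groups did not overlap, 5′ to 3′ and in lower case because no match marks a part.
Gria4: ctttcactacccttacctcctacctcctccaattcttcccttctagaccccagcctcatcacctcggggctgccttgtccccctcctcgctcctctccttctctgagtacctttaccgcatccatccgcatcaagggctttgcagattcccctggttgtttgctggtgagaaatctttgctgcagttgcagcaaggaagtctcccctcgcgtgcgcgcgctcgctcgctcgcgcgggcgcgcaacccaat
Grin2d: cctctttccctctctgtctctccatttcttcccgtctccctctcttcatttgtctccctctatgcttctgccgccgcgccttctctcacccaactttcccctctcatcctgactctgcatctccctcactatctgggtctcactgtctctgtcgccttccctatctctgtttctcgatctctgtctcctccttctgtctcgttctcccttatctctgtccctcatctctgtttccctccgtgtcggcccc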

How the data were processed

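Values are the authors' deposited log2 values of 241576 probe sets on 8 Affymetrix Mouse Gene 1.0 ST arrays, which the submitters' processing notes credit to RMA and Affymetrix Power Tools. No version is named in the sources used here. Medians per array were 7.82 to 7.88, and the number of arrays limits the precision. Probe sets with 1 symbol in the platform annotation (212097) were averaged per gene after symbols were updated to GRCm38.p6. The annotation gives no build, so no array coordinates are printed. Gene values were compared with limma 3.58.1 in R 4.3.3 (lmFit, eBayes without trend, two-sided, Benjamini-Hochberg over 20352 genes), with group as the only term. The fit was tested on simulated data whose changes were larger than any difference of the genes described here. Recovery of changes of their size was not tested. The dim limit, 6.21, is the 95th percentile of 985 olfactory receptor genes. Levels of different genes are not ranked, since probes differ in brightness. Values on every array are given for genes with an unadjusted p under 0.05, the smallest p of each class, 8 genes chosen by name and genes whose sign differs between the mean and the median of their probe sets, and up to 2 genes with the smallest p are named per partner or marker list. The genes and lists were chosen with earlier results of these data known. Alternatives are under the closing section.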

Additional observations from a re-analysis of the deposited data

Results flagged for a closer look

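In 6 of 62 groups of 4 arrays (31 genes in 2 groups each) 1 array lay far from the other 3 by Dixon's test at its 95% limit; chance marks about 1 in 20 groups. In Cic-L-null replicate 1, Grik5 was at 9.33 (next 9.29) and Grm2 at 8.88 (next 8.71). In Cic-L-null replicate 2, Cbln4 was at 7.18 (next 6.61). In Cic-L-null replicate 4, Grin2c was at 10.42 (next 10.30). In wild-type replicate 3, Gria2 was at 10.50 (next 10.81) and Grin2d at 7.76 (next 7.88). Lamp5, a forebrain marker named here after its values were seen, was also high in Cic-L-null replicate 2, at 7.29 against 5.98 to 6.05 in the other Cic-L-null arrays.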

How the results depend on the processing

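None of the 31 genes passed the test under any of the 18 alternatives that gave at least 1 of them a value, and the smallest adjusted p was 0.0602, for Gria1 with a trended and robust variance. With each array left out in turn, 4 to 11 of the 31 had an unadjusted p under 0.05. Groups did not overlap in 5 to 8, with 8 without Cic-L-null replicate 3, wild-type replicate 1 or wild-type replicate 4, where fewer arrays overlap less by construction. The calls over all genes, 28 in the report, were 0 without Cic-L-null replicate 2, the lowest with 1 array left out, and 37, the highest, without wild-type replicate 1, and they were 3 to 7 without Cic-L-null replicate 1 or 4 or wild-type replicate 2, 3 or 4. They were 2 with the median of the probe sets, 69 among genes above the dim limit, 130 with a trended and robust variance, 54 with array weights, 18 with the Y-linked covariate and 1 with single probe sets as features, and the cause was not tested. With the replicate numbers as a block, 0 genes were called (limma), and 7 of the 31 still had an unadjusted p under 0.05; deviations of same-numbered arrays correlated at 0.22, 0.00033, 0.21 and 0.026 for numbers 1 to 4, so the numbers were not treated as pairs.

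Signs changed for 11 genes, 33 times in 527 values; the largest of these differences in the report was 0.11, and the cause was not tested. With the median of the probe sets, the difference was 0.045 for Grik3, 0.061 for Grik4, -0.050 for Grid1, 0.027 for Cbln1 and -0.046 for Homer1. With probe sets above the dim limit it was 0.0011 for Grik4, -0.012 for Grin3b and -0.062 for Cbln2. With array weights it was 0.0013 for Grm6, 0.026 for Grm7, -0.040 for Cbln4 and 0.018 for Homer3, and with the Y-linked covariate 0.014 for both Grm6 and Grm7. With probe sets of several symbols, an alternative chosen after seeing the data, it was -0.053 for Grin3b and 0.022 for Homer3. With 1 array left out, ranges were -0.030 to 0.0039 for Cbln1, -0.13 to 0.089 for Cbln4, -0.0058 to 0.061 for Grid1, -0.048 to 0.021 for Grik3, -0.061 to 0.014 for Grik4, -0.011 to 0.14 for Grin3b, -0.093 to 0.082 for Grm6, -0.072 to 0.057 for Grm7 and -0.062 to 0.036 for Homer3. Grin2c minus Grin2b was 0.023 and Grin2a minus Grin2b -0.066 with the median of the probe sets. Grin2a minus Grin2b was also below 0 with probe sets above the dim limit (-0.012), quantile normalisation (-0.016) and array weights (-0.024), and with 1 array left out ranged from -0.044 to 0.082. Without single arrays, and with no change of sign, other differences moved as well, among them to -0.037 for Grin1, 0.054 for Cbln2 and -0.025 for Grm3 without wild-type replicate 1, to 0.0059 for Grin3a without wild-type replicate 4, to -0.0048 for Grm3 and 0.040 for Homer1 without Cic-L-null replicate 4, to 0.026 for Grin3b and 0.080 for Grin2b without Cic-L-null replicate 3. The 7 genes with an unadjusted p under 0.05 kept their sign throughout. Of the 17 alternatives that gave these genes a value, all kept that p under 0.05 (limma) for Gria1, Grm4 and Grm5. It stayed under 0.05 in 16 for Grm8, 15 for Gria4, 14 for Gria3 and 11 for Grin2d. Overlap was recomputed only where values or arrays changed, and single probe sets gave no gene difference.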
